A study of Homo sapiens with 5 samples.

Results

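The 10 genes described here encode UCHL1, a ubiquitin hydrolase of neurons, and 9 proteins of the neuronal cytoskeleton: the stathmins STMN2, STMN3 and STMN4, the beta-tubulins TUBB3 and TUBB2B, the collapsin response mediators DPYSL3 and CRMP1, the growth cone protein GAP43 and the microtubule-binding protein MAP1B. All probes that the array platform's annotation gives to one of these symbols were taken, 13 probes out of 47318, for 10 of the 20044 genes with a probe. The genes were chosen by their measured difference between trastuzumab-resistant and trastuzumab-sensitive cells in these same arrays, UCHL1 above all, so their values in that comparison are a description and carry no test. Total RNA of 5 human gastric cancer cell lines was hybridised to Illumina BeadChip arrays, 1 array per line. The 4 lines N87-TR1 to N87-TR4 carry the label resistant, and NCI-N87 the label sensitive, to the ERBB2 antibody trastuzumab. All 5 lines grew in RPMI medium with fetal bovine serum, and RNA came from subconfluent cells. The labels do not say whether the resistant lines were derived or cultured separately or whether any is a single clone, and the p-values below therefore reflect how far these arrays differ among themselves, a spread that may be technical.

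Neurons build long processes from microtubules, polymers of alpha- and beta-tubulin. Stathmins bind free tubulin and favour disassembly, MAP1B binds the polymer in growing axons, collapsin response mediators carry tubulin and relay guidance signals, and GAP43 lies under the growth cone membrane. UCHL1, also known as PGP9.5, is among the most abundant proteins of neurons, removes small adducts from ubiquitin and serves as a marker of neurons and neuroendocrine cells. In epithelial tissues most of these genes are low or silent in normal cells, and several of them are found in neuroendocrine tumours and in cultured cancer cells.

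Between 10248 and 11069 genes were detected per array. A gene counts as detected if a probe had a detection p under 0.01 against the array's negative controls, and 12478 genes detected on at least 1 array were tested. Levels are background-corrected, quantile-normalized intensities on the log2 scale, so that 1 unit is 2-fold. The lowest detected signal lay between 6.17 and 6.68 on this scale, and levels of different probes are not compared with one another. N87-TR3 stood apart from the other resistant lines, with 119 genes past the test of 1 line against the other 3 (0.954% of genes), while N87-TR1, N87-TR2 and N87-TR4 had 0. Of the 119 genes, 110 were lower in N87-TR3 and 9 higher. This set was lost when N87-TR1 or N87-TR4 was left out, and its size changed widely with the processing. The array of N87-TR3 also had the fewest detected genes, 10248, and its lowest detected signal, 6.68, was the highest of the 5 arrays. Whether this bears on the lower levels in N87-TR3 was not tested. Of 9 epithelial markers, all 9 were detected in NCI-N87 and 4 to 5 in each resistant line. Keratin 19, keratin 7, claudin 7 and claudin 4 were below detection in all 4 resistant lines.

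Of the 10 genes, 4 were detected on all 5 arrays (STMN3, TUBB3, TUBB2B and DPYSL3), UCHL1 and MAP1B on the 4 resistant arrays, CRMP1 on 3 arrays and GAP43 on 1. STMN2, with 2 probes, and STMN4, with 1, were detected on no array and were not tested, which leaves 8 tested genes. UCHL1, TUBB2B, DPYSL3 and MAP1B are the 4 that lay highest above NCI-N87 in the resistant lines. Their promoters are shown because these genes were high together, as the 300 bases from 250 before to 50 after the most upstream start site that RefSeq gives (GRCh38.p14, 5′ to 3′ on the strand of the gene). Capitals mark the GC box GGGCGG, the TATA box TATAAA, the CCAAT box CCAAT and the left part of the RE1 element, TTCAGCACC, bound by the repressor REST, each searched on both strands. Of the 10 genes 8 had promoters that were searched, 14 in all, and those of STMN2 and STMN4 were not searched.
UCHL1, chr4:41256678-41256977, + strand: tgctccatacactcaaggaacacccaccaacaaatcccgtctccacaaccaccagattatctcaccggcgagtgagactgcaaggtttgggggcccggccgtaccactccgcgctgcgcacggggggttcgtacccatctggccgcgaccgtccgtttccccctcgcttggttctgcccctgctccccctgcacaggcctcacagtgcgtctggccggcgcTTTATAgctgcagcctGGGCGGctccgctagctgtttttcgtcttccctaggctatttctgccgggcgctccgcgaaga
TUBB2B, chr6:3227604-3227903, - strand: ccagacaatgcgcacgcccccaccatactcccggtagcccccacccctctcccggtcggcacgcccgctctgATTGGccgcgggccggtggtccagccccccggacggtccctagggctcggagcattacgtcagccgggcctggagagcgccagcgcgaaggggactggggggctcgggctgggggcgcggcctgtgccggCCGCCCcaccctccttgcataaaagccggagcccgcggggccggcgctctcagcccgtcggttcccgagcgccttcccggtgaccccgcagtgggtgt
DPYSL3, chr5:147510019-147510318, - strand: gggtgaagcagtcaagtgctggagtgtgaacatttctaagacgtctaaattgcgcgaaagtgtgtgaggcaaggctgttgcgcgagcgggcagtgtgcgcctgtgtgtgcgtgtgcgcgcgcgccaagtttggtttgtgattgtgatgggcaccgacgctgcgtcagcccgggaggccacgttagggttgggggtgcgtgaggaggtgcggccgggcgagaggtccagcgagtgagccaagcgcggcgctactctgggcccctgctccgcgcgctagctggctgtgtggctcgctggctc
MAP1B, chr5:72107225-72107524, + strand: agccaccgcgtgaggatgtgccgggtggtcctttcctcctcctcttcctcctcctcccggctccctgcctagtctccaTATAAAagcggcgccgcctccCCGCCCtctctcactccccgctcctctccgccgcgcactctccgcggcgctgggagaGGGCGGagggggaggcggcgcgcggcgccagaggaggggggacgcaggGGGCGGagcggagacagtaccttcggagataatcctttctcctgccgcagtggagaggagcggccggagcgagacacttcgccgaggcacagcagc

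The UCHL1 promoter held 1 GC box and 1 TATA box, that of TUBB2B 1 GC box and 1 CCAAT box, that of MAP1B 3 GC boxes and 1 TATA box, and the DPYSL3 promoter held none of the 4 motifs. A GC box occurred in 45.0% of all 35116 promoters of the table, a TATA box in 11.5% and a CCAAT box in 34.6%. The RE1 part was found in 0 of the 14 promoters of these genes, against 0.376% of all promoters. The 4 promoters held 25, 34, 29 and 31 CpG dinucleotides in the order shown, where the median of all promoters was 14 and the upper quartile 28. The upstream promoters of the other genes ranged from 7 CpG in GAP43 and 9 in TUBB3 to 49 in CRMP1. A further TUBB3 promoter, downstream of the one counted, held 47. A match is a run of letters and says nothing of binding.

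UCHL1 was high in all 4 resistant lines and not detected in the sensitive line. Its level was 13.02, 13.02, 12.35 and 13.05 in N87-TR1 to N87-TR4, against 4.81 in NCI-N87. The groups did not overlap, and 3 of the resistant lines lay between 13.02 and 13.05, with N87-TR3 the lowest. On the scanner the probe read 7219, 8710.2, 5254.4 and 10498.3 in N87-TR1 to N87-TR4, against 95.7 in NCI-N87, where its detection p was 0.742. With the sensitive line at its lowest detected signal, the resistant lines exceeded it at least 86.7-fold for UCHL1 (mean 12.86 ± 0.34, SD, n = 4). This and every "at least" value holds on the background-corrected scale only. Without background correction UCHL1 was 62.8-fold higher, and 69.9-fold with the authors' processed values. As with each value here, less RNA per cell and fewer cells that express a gene cannot be told apart in RNA from whole cultures.

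The beta-tubulin pair went in opposite directions. TUBB2B, a beta-tubulin of the developing brain, had levels of 13.24, 12.95, 12.16 and 13.05 in N87-TR1 to N87-TR4, against 9.80 in NCI-N87. All 4 resistant lines lay above the sensitive line, which itself had a clear signal, and N87-TR3 was again the lowest of them. The log2 difference was 3.05 ± 0.45 (standard error of the fit), or 8.30-fold. TUBB3, the neuron-specific class III beta-tubulin used as a neuronal marker, had levels of 10.21, 8.47, 9.97 and 8.23 in N87-TR1 to N87-TR4, against 11.10 in NCI-N87. Here every resistant line lay below the sensitive line. The resistant lines formed a higher pair, N87-TR1 and N87-TR3, and a lower pair, N87-TR2 and N87-TR4, and the log2 difference was -1.88 ± 0.80. The sequences of TUBB2B and TUBB2A are near-identical, so their probes may bind both transcripts and the share of each is uncertain.

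STMN3 was the stathmin with a signal, and it did not separate the groups. Its level was 12.83, 11.33, 12.61 and 12.30 in N87-TR1 to N87-TR4, against 11.91 in NCI-N87. N87-TR2 lay below the sensitive line and the other 3 resistant lines above it, so the groups overlapped (log2 difference 0.36 ± 0.56). The 2 probes of STMN2, a stathmin of growth cones, read between 113.3 and 162 on the scanner in the resistant lines, and 131.2 and 127 in NCI-N87. The STMN4 probe read between 99.7 and 140.4 in the resistant lines and 115.5 in NCI-N87. Neither gene passed the detection limit in any line, with detection p-values from 0.0468 to 0.912 over their 3 probes.

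Of the collapsin response mediators, DPYSL3 was higher in all 4 resistant lines and CRMP1 only in the 3 that detected it. DPYSL3, also called CRMP4, had levels of 10.66, 11.40, 11.34 and 11.39 in N87-TR1 to N87-TR4, against 7.88 in NCI-N87. The groups did not overlap. N87-TR1 was the lowest resistant line, and the other 3 lay between 11.34 and 11.40. The log2 difference was 3.32 ± 0.39, or 9.98-fold. CRMP1 had levels of 8.27, 5.69, 7.82 and 6.77 in N87-TR1 to N87-TR4, against 5.21 in NCI-N87, by the 1 of its 3 probes that was detected anywhere. It was not well above background in N87-TR2 and NCI-N87, and the mean of the resistant lines was at least 1.64-fold higher, with 3 of 4 resistant arrays measuring it. The other 2 CRMP1 probes were below detection on all 5 arrays, with scanner signals of 90.3 to 149.6 in the resistant lines and 92.3 and 130.7 in NCI-N87.

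MAP1B, which stabilises microtubules in growing axons, had levels of 8.89, 9.70, 6.72 and 9.23 in N87-TR1 to N87-TR4, against 5.35 in NCI-N87, where it was not detected. The 4 resistant lines lay above the sensitive line, but N87-TR3 only just passed the detection limit, with a detection p of 0.00649. The mean of the resistant lines was at least 4.64-fold higher (8.64 ± 1.32, SD, n = 4). GAP43, a substrate of protein kinase C in growth cones, had levels of 5.78, 5.77, 6.71 and 5.53 in N87-TR1 to N87-TR4, against 5.35 in NCI-N87. It passed detection in N87-TR3 alone, also with a detection p of 0.00649, and no fold is given. The levels of all 10 genes by line show 3 genes, UCHL1, TUBB2B and DPYSL3, that were clearly detected in every resistant line and higher there than in NCI-N87, where TUBB2B and DPYSL3 were also detected and UCHL1 was not.

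**Figure D1:**
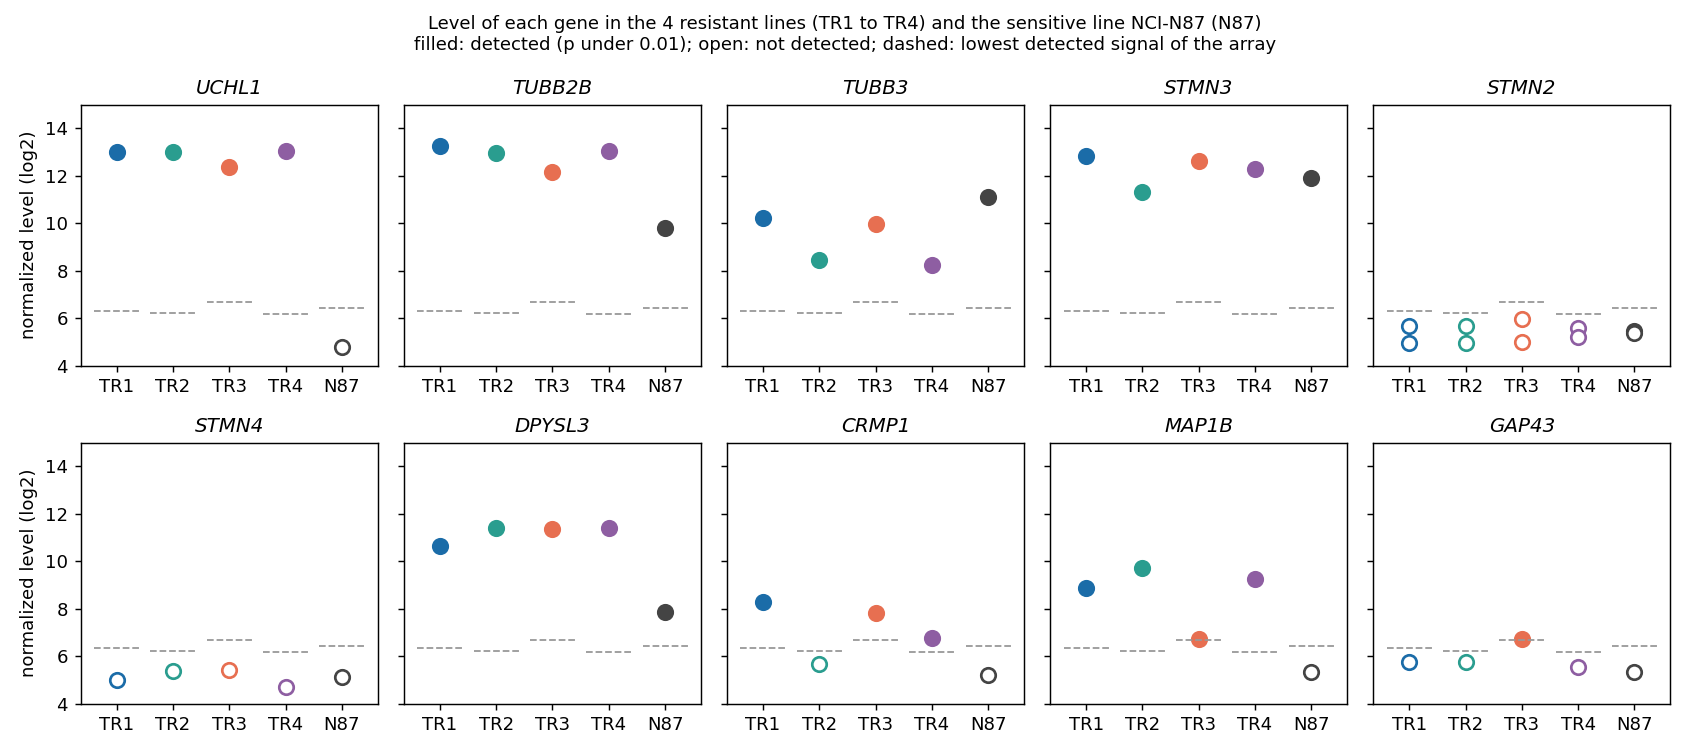
Normalized level (log2) of each of the 10 genes in the 4 resistant lines and in NCI-N87, 1 point per array and probe. Filled points are detected, open points are not, and dashed lines give the lowest detected signal of each array. Both STMN2 probes are drawn, and for CRMP1 the detected probe. UCHL1 stands at 12.35 to 13.05 in the resistant lines and at 4.81, undetected, in NCI-N87.

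Read as a set, 6 of the 8 tested genes gave a higher reading in every resistant line than in NCI-N87, 1 gave a lower one in every resistant line (TUBB3) and 1 overlapped (STMN3). Of the 6, 4 were detected in all 4 resistant lines (UCHL1, TUBB2B, DPYSL3 and MAP1B). The other two were CRMP1, undetected in N87-TR2 and NCI-N87, and GAP43, undetected everywhere but in N87-TR3, and readings below detection have no order. Of all 12478 genes, 36.9% were higher and 31.7% lower without overlap, 68.6% together. UCHL1, TUBB2B and DPYSL3 were past the threshold of the fit over all genes (limma, Benjamini-Hochberg adjusted p under 0.05), where 23.1% of all genes were called and 12.5% of all genes were called higher. Because this comparison chose the genes, nothing is read from these counts. N87-TR1 had 5 of the 8 genes at least 2-fold higher than NCI-N87 and 0 lower, where the background was 19.2% higher and 17.1% lower. N87-TR2 had 4 higher and 1 lower (background 18.7% and 16.5%), N87-TR3 had 6 higher and 1 lower (22.2% and 17.6%) and N87-TR4 had 5 higher and 1 lower (18.4% and 16.3%). These counts take undetected levels as they were read. With such levels set at the lowest detected signal of their array, N87-TR1 had 5 higher and 0 lower (background 15.3% and 14.8%), N87-TR2 4 and 1 (14.9% and 14.7%), N87-TR3 4 and 1 (18.4% and 14.0%) and N87-TR4 4 and 1 (14.5% and 14.6%). The genes that dropped out were MAP1B and GAP43 in N87-TR3 and CRMP1 in N87-TR4, all near the detection limit. These comparisons have 1 array on each side, share the NCI-N87 array and carry no test. The lower gene was TUBB3 each time. Its level was 1.86-fold, 6.19-fold, 2.20-fold and 7.34-fold below that of NCI-N87 in N87-TR1 to N87-TR4.

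**Figure D2:**
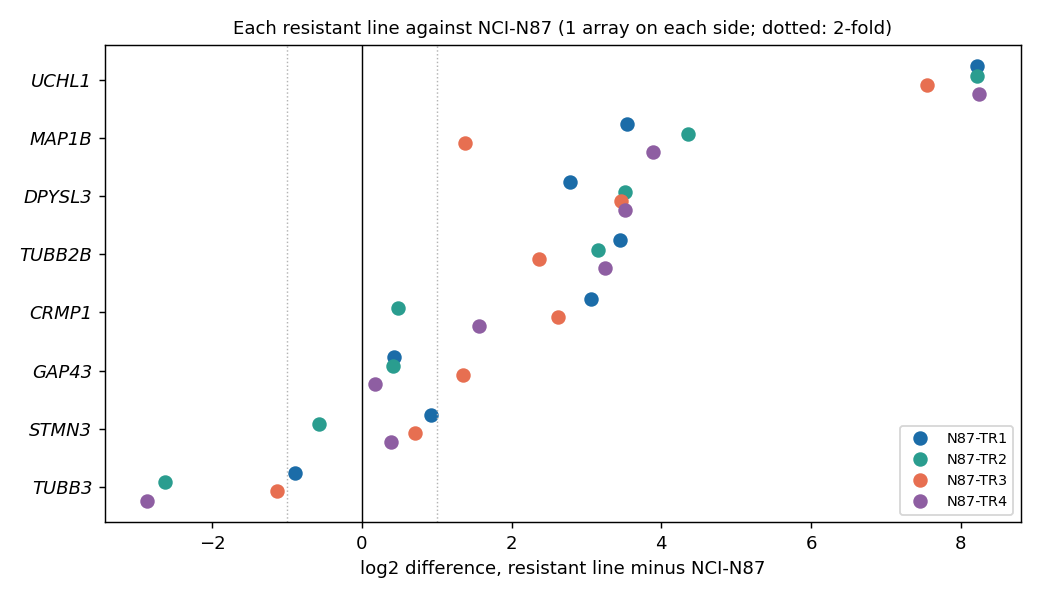
Log2 difference of each tested gene between each resistant line and NCI-N87, 1 array on each side, with dotted lines at 2-fold. For UCHL1, MAP1B, CRMP1 and GAP43 the NCI-N87 level was below detection, so those differences depend on the background. TUBB3 lies left of 0 in all 4 lines, and STMN3 in N87-TR2.

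Differences among the resistant lines were not part of the choice of genes and were tested, each line against the other 3, by limma over all 12478 genes. MAP1B was the gene that differed. Its level in N87-TR3 was 6.72, against 8.89, 9.70 and 9.23 in the other 3 lines, and all 3 lay well above N87-TR3. The log2 difference was -2.56 ± 0.37, or 5.88-fold lower in N87-TR3 (adjusted p = 0.0449). The size depends on the background, since MAP1B lay at the detection limit in N87-TR3, and it was 3.30-fold without background correction and 3.46-fold with the authors' values. Among all genes 0.882% were called lower in N87-TR3, and the range of MAP1B over the resistant lines, 2.98, was wider than that of 99.5% of genes. This call was close to the threshold. The adjusted p was 0.0589 without N87-TR1, 0.243 without N87-TR4, 0.0782 without a detection filter and 0.0572 with the mean of a gene's probes, and over all alternatives it lay between 0.0163 and 0.243.

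Other genes also had their extreme value in N87-TR3, without passing the test. UCHL1 was lower there by a log2 difference of -0.68 ± 0.26 (limma adjusted p = 0.241) and TUBB2B by -0.92 ± 0.28 (adjusted p = 0.168). GAP43 was below detection in the other 3 lines, so only a bound of at least 1.39-fold higher in N87-TR3 can be given (adjusted p = 0.140). In N87-TR2, STMN3 differed from the other 3 lines by -1.25 ± 0.38, with an adjusted p of 1.00 by limma and an unadjusted p of 0.0168. CRMP1, not detected in N87-TR2, was at least 2.65-fold lower there, with an adjusted p of 1.00 and an unadjusted p of 0.0190. No gene of the array passed in N87-TR1, N87-TR2 or N87-TR4 (0 of 12478, 0.00%), where 515, 325 and 176 genes had an unadjusted p under 0.05. Of the 8 genes, 0 had such a p in N87-TR1, 2 in N87-TR2 and 0 in N87-TR4. In N87-TR3 4 of the 8 had an unadjusted limma p under 0.05, as did 2355 of all 12478 genes. With a trended and robust prior 1 gene of the array passed in N87-TR4.

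**Figure D3:**
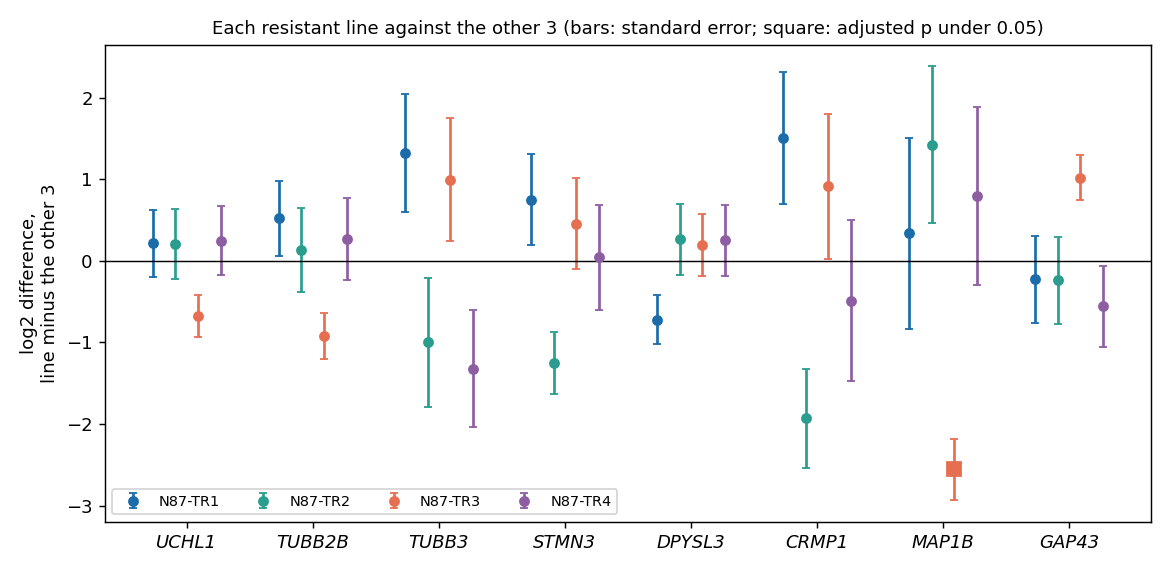
Log2 difference of each resistant line from the mean of the other 3, with the standard error of the limma fit as bars. The square is the value with an adjusted p under 0.05, MAP1B in N87-TR3 at -2.56. GAP43, and CRMP1 in N87-TR2, are drawn from readings below detection.

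The resistant lines did not fall into the same order for all genes. STMN3 and CRMP1 had the order N87-TR1, N87-TR3, N87-TR4, N87-TR2 from high to low, and TUBB3 the same apart from N87-TR2 and N87-TR4, which changed places. MAP1B and DPYSL3 were highest in N87-TR2 and next highest in N87-TR4. Looked up after these values were seen, the axonal kinesins KIF1A and KIF5C and the neuroendocrine transcription factor INSM1 shared the order of STMN3 and CRMP1. KIF5C had levels of 11.35, 9.44, 11.01 and 10.39 in N87-TR1 to N87-TR4, against 4.80 in NCI-N87. KIF1A had levels of 13.40, 11.68, 13.19 and 12.53, against 9.59 in NCI-N87. The same order occurred in 528 genes, 4.23% of all genes tested, and is a description of 4 arrays.

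**Figure D4:**
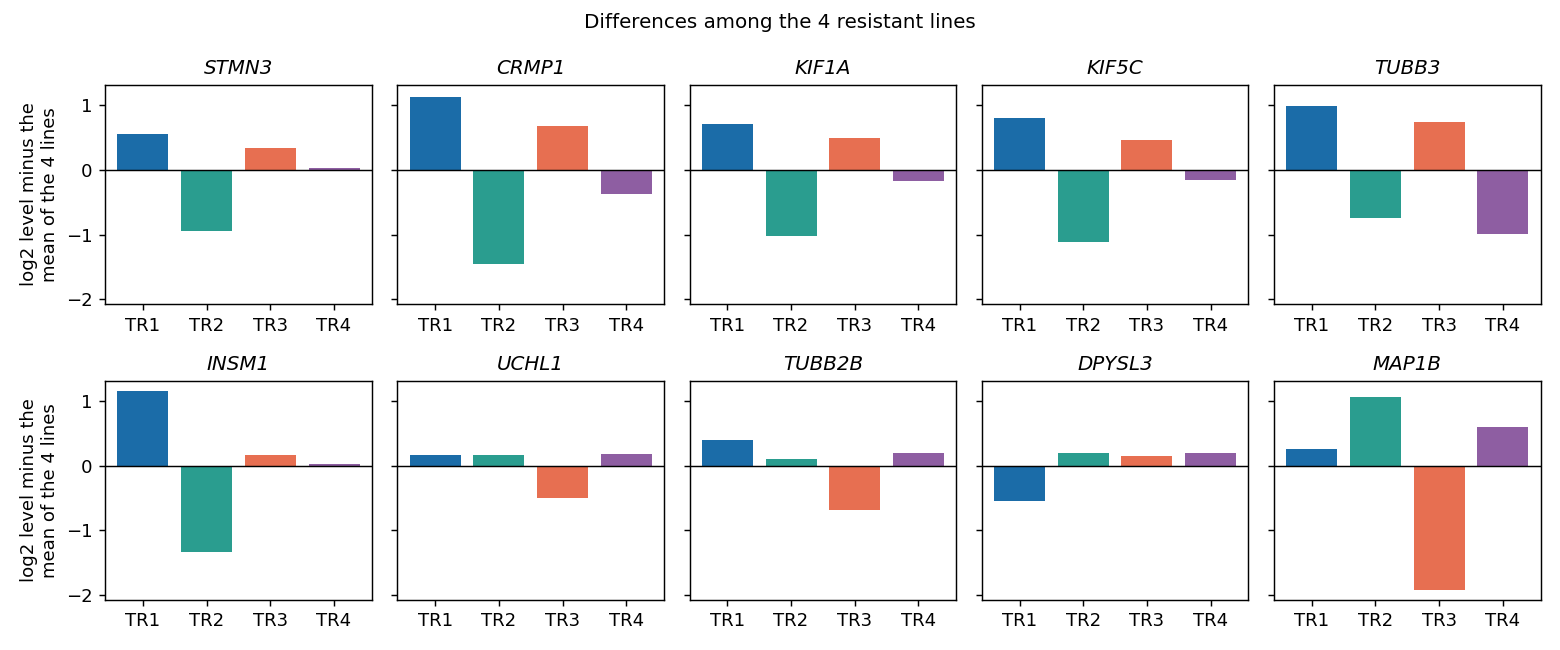
Level of 10 genes in N87-TR1 to N87-TR4 as the difference (log2) from their mean over the 4 lines. STMN3, CRMP1, KIF1A, KIF5C and INSM1 are lowest in N87-TR2, UCHL1, TUBB2B and MAP1B are lowest in N87-TR3, DPYSL3 is lowest in N87-TR1 and TUBB3 in N87-TR4.

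The genes whose levels followed UCHL1 most closely over the 5 arrays, by the Euclidean distance of log2 levels centred on each gene's mean, were the actin regulator EVL (0.27), the guidance ligand SLIT2 (0.39), the non-muscle myosin MYH10 (0.58), the metalloproteinase ADAMTS1 (0.67) and N-cadherin CDH2 (0.71). Each was below detection in NCI-N87 and detected in all 4 resistant lines. The bound on the difference was at least 101-fold higher for EVL and at least 80.0-fold for CDH2, where the folds without background correction were 66.4 and 45.4. The distance over 5 arrays follows mainly the step between NCI-N87 and the other lines. Of the members themselves, DPYSL3 ranked 303 of 12477 genes by this distance, TUBB2B 330 and MAP1B 362, whereas STMN3 ranked 5176 and TUBB3 11752. The members were chosen by that same step, so nothing is read from their ranks.

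The remaining genes of the pathway were compared between the 4 resistant lines and NCI-N87 with limma, adjusted over all 12478 genes. These lists and those further below were chosen with earlier results of these data known. Their calls and shares therefore describe these arrays and are no independent support. Genes undetected in NCI-N87 entered the test through the resistant lines alone and could hardly be called lower. Of 14 other tubulins tested, 4 rose, 1 fell and 9 did not pass, which is 35.7% called beside 23.1% of all genes. The median log2 difference was 0.87, against 0.07 for all genes. TUBB4A, a brain beta-tubulin, had levels of 8.53, 8.52, 9.05 and 8.12 in N87-TR1 to N87-TR4, against an undetected 5.14 in NCI-N87, a rise of at least 4.38-fold (adjusted p = 0.00132). The ubiquitous beta-tubulin TUBB rose 2.48-fold (adjusted p = 0.0220), the neighbour of TUBB2B, TUBB2A, rose 2.66-fold (adjusted p = 0.0452), and the delta-tubulin TUBD1 rose 2.48-fold. TUBA4A, an alpha-tubulin, fell by 3.62 ± 1.01 on the log2 scale (adjusted p = 0.0428), with a level of 7.45 ± 1.30 (SD, n = 4), not detected in N87-TR2, against 11.07 in NCI-N87. TUBB6 differed by -0.36 ± 0.28 and TUBA1A, an alpha-tubulin of neurons, by 0.13 ± 0.29 (adjusted p = 0.411 and 0.785). The call on TUBB was lost without N87-TR2 (adjusted p = 0.0595) or N87-TR4 (0.0597), that on TUBB2A without N87-TR1 (0.0924) or N87-TR2 (0.0738), and that on TUBA4A without N87-TR4 (0.0792). With all lines, TUBB did not pass with the mean of probes (0.0967), TUBB2A not with cyclic loess (0.0619), and neither TUBB2A (0.0613) nor TUBA4A (0.0914) without a detection filter. Of the 14 tubulins 2 were called without N87-TR2, and 2 without N87-TR4.

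Among 25 other microtubule-binding and collapsin response genes 4 rose, 2 fell and 19 did not pass (24.0% called, median log2 difference 0.43). DPYSL4, another collapsin response mediator, was at least 8.11-fold higher (adjusted p = 0.00260), whereas its relative DPYSL2 differed by 0.43 ± 0.39 (adjusted p = 0.472). The axonal microtubule protein tau, MAPT, had levels of 8.94, 8.72, 8.52 and 8.30 in N87-TR1 to N87-TR4, against an undetected 4.70 in NCI-N87, a rise of at least 4.58-fold (adjusted p = 0.000374). STMN1, the stathmin of dividing cells, rose 3.94-fold (adjusted p = 0.00469) and the doublecortin-like kinase DCLK1 was at least 1.92-fold higher (adjusted p = 0.0161). The autophagy gene MAP1LC3A was at least 6.61-fold lower (adjusted p = 0.000150), and MAP7, a microtubule protein of epithelia, fell 2.54-fold. For the dendritic MAP2 the log2 difference was -1.14 ± 0.35, with an adjusted p of 0.0566 over all lines and 0.0344 when N87-TR3 was left out.

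Growth cone and axon transport genes had 11 of 25 higher, 1 lower and 13 not past the test (48.0% called beside 23.1% of all genes, median log2 difference 0.75). EVL, BASP1, KIF5C and CNTN1 were undetected in NCI-N87, so they entered the test only through the lines in which they were high. With detection on all 5 arrays 6 genes of this list were called. Beside EVL, BASP1, a membrane protein related in function to GAP43, had levels of 12.38, 12.04, 12.04 and 12.26 in N87-TR1 to N87-TR4, against an undetected 5.65 in NCI-N87. It was at least 53.9-fold higher (adjusted p = 4.57e-05), and 28.5-fold without background correction, while GAP43 itself stayed near background. The kinesin KIF5C was at least 17.4-fold higher (adjusted p = 0.00145) and the axonal adhesion protein contactin, CNTN1, at least 6.69-fold (adjusted p = 0.00545). KIF3B, a kinesin-2 motor, was the gene that fell, 2.18-fold. Of these 25 genes 7 were called when N87-TR2 was left out, and also 7 when N87-TR4 was.

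Of 25 tested genes that fold or modify tubulin, 8 rose, 0 fell and 17 did not pass (32.0% called, median log2 difference 0.64). Vasohibin 1 (VASH1), which cuts the terminal tyrosine from alpha-tubulin, rose 8.44-fold (adjusted p = 0.000619). The polyglutamylase TTLL7 rose 3.39-fold (adjusted p = 0.00674), the severing protein KATNAL1 rose 3.23-fold (adjusted p = 0.0193) and the carboxypeptidase AGBL5 rose 3.09-fold (adjusted p = 0.0225). Among the ubiquitin hydrolases and ubiquitin genes 2 of 15 rose, 0 fell and 13 did not pass (13.3% called, median log2 difference 0.14). The rises were in UBB, a polyubiquitin gene (2.53-fold, adjusted p = 0.0181), and USP46 (2.20-fold, adjusted p = 0.0381). UCHL3, the closest relative of UCHL1, differed by 0.65 ± 0.33 (adjusted p = 0.215), with levels of 11.25, 10.79, 10.75 and 10.74 in N87-TR1 to N87-TR4, against 10.24 in NCI-N87. Without N87-TR4, 3 of the tubulin-modifying genes were called. UBB and KATNAL1 did not pass with the mean of a gene's probes (0.0849 and 0.102), AGBL5 not without N87-TR2 or N87-TR4, and USP46 not under 5 alternatives.

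**Figure D5:**
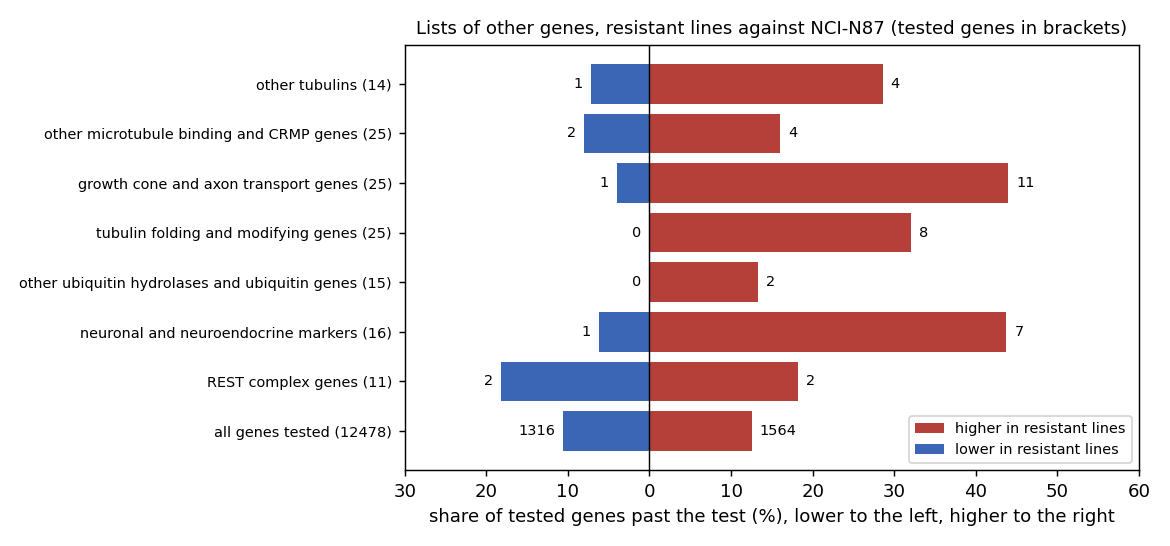
Share of the tested genes of each list past the limma test (adjusted p under 0.05), higher in the resistant lines to the right and lower to the left, with the counts at the bar ends. The bottom bar gives all 12478 genes, of which 1564 were higher and 1316 lower.

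Markers of neurons and neuroendocrine cells were in part higher in the same lines as UCHL1. Of 21 with a probe, 9 to 12 were detected in each resistant line and 4 in NCI-N87. Of 16 tested, 7 rose, 1 fell and 8 did not pass (8 of 16 called beside 23.1% of all genes, median log2 difference 1.73). Detection on 1 array was enough to be tested, so markers undetected in NCI-N87 entered through the resistant lines alone. The filter thus favoured rises, and nothing is read from the direction of this list. With detection on all 5 arrays 3 of these markers were called. The neurofilament NEFL was at least 12.4-fold higher (adjusted p = 0.00612, and 6.10-fold without background correction), the G protein subunit GNG4 at least 6.02-fold, the intermediate filament peripherin, PRPH, at least 3.27-fold, and INSM1 rose 10.4-fold (adjusted p = 0.0256, but 0.0541 without N87-TR4 and 0.0578 without a detection filter). ENO2, the neuronal enolase, rose 5.67-fold (adjusted p = 0.0166), and SCG5 was at least 2.64-fold lower. Among the 8 that did not pass were CHGA, detected in 3 resistant lines, SYP, detected in 2, and SCG2 and SCG3, each detected in 1. CHGB and the defining neuronal genes ELAVL3, ELAVL4 and RBFOX3 were detected in no line. The part of these markers in the UCHL1 result was not tested. REST, the repressor that keeps neuronal genes silent outside neurons, had levels of 5.91, 6.03, 5.35 and 6.16 in N87-TR1 to N87-TR4, all below detection, against 7.33 in NCI-N87. It was at least 1.98-fold lower (adjusted p = 0.0353), a call lost without N87-TR1, N87-TR2 or N87-TR4 (0.0558 to 0.0721), without background correction (1.59-fold, 0.0757) and with the authors' values (1.73-fold, 0.0549). Of 11 genes of the REST complex 2 rose and 2 fell (36.4% called, median log2 difference -0.56). The corepressor RCOR2 was at least 5.46-fold higher (adjusted p = 0.00291) and the demethylase KDM1A rose 1.98-fold, while CTDSPL, a phosphatase that acts with REST, fell 2.25-fold. The calls on KDM1A and CTDSPL were each lost without N87-TR1, N87-TR2 or N87-TR4 (adjusted p of 0.0677 to 0.111), and 1 gene of this list was called in each of those fits. That on KDM1A was also lost with cyclic loess (0.102). Whether REST bears on the level of UCHL1 was not tested.

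Epithelial genes fell in the same lines in which UCHL1 was high. Of 9 tested, 8 fell and 0 rose, with a median log2 difference of -5.33. ERBB2, the target of trastuzumab, averaged 10.45 ± 0.23 in the resistant lines (SD, n = 4), against 15.90 in NCI-N87 (43.7-fold lower, adjusted p = 8.54e-05). On the log2 scale E-cadherin (CDH1) fell by 4.53 ± 0.79 and EPCAM fell by 4.30 ± 0.65, and KRT18 did not pass. The part of these genes in the UCHL1 result was not tested. Of markers of other lineages few were detected. Of 2 glial genes tested OLIG2 rose and MBP fell, both also known outside glia, while GFAP, S100B and SOX10 were not detected. Of 9 fibroblast markers 1 was detected on 1 array (COL1A1 in N87-TR1), of 8 leukocyte markers with a probe 2 on every array (CD14 and CD68), and of 6 endothelial markers 0. None of the tested fibroblast and leukocyte markers passed the limma test, and none had an unadjusted p under 0.05.

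Genes next to UCHL1 on the chromosome, in the gene order of RefSeq (GRCh38.p14), were looked up after the values were seen and differed in direction. On 1 side APBB2 differed by -0.44 ± 0.56 (adjusted p = 0.622) and NSUN7, next to it, was at least 2.87-fold lower (adjusted p = 0.00238). On the other side LIMCH1, a regulator of non-muscle myosin, rose by 1.96 ± 0.38 (adjusted p = 0.0120). Around TUBB2B, TUBB2A, BPHL and SLC22A23 rose, by 1.41, 1.81 and 2.71 on the log2 scale, and PSMG4 differed by 0.84 ± 0.33 (adjusted p = 0.116). MC1R, beside TUBB3, fell by 1.42 ± 0.35 (adjusted p = 0.0297) and DEF8 on its other side differed by -0.15 ± 0.35 (adjusted p = 0.806). The call on MC1R was lost without N87-TR1, N87-TR2 or N87-TR4 (0.0536 to 0.0624). DBNDD1, the gene after DEF8, rose by 1.32 ± 0.33 (adjusted p = 0.0304). Among neighbours looked up in the same way, beside STMN3, which did not separate the groups, GMEB2 fell by 1.44 ± 0.30 and HELZ2 by 2.76 ± 0.47 (adjusted p = 0.0144 and 0.00698). The tested neighbours of MAP1B and DPYSL3 did not pass (adjusted p from 0.253 to 0.806).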

How the data were processed

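The deposited table holds 1 signal intensity per probe and array, linear and not normalized, with a detection p-value beside it. Per the submitters' processing notes GenomeStudio was used, with no version given. A second deposited table of the authors' processed intensity, every array with a median of 146.3, served as an alternative. The sources used here do not give its method. Probes were named by the platform's annotation, updated by gene ID to RefSeq GRCh38.p14. Signals were background-corrected and quantile-normalized with neqc (offset 16) of limma 3.58.1 in R 4.3.3. For each gene the detected probe with the highest mean was used. Groups follow the labelled sensitivity. Comparisons used lmFit and eBayes with Benjamini-Hochberg adjustment over all genes, and the single sensitive array was assumed to vary like the resistant ones. The fit was tested on simulated data in which the sensitive array was drawn with the spread of the resistant lines. That assumption itself was therefore not checked. Alternatives changed the background correction, offset, scaling, detection filter, probe rule and prior, or left out a line. With 5 arrays, their number limits the precision. Bounds ("at least") set the dimmer group at the higher of its array's lowest detected signal and its own. The members and lists were chosen with earlier results of these data known. Named were all members, up to 4 called genes per list with the widest differences, a fixed set of relatives, and the 5 genes nearest UCHL1. Others are named where a count was small or as stated.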

Additional observations from a re-analysis of the deposited data

Results flagged for a closer look

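In UCHL1, N87-TR3 lay apart from the other resistant lines, at 12.35 against 13.02 to 13.05. The gap to the nearest line made up 0.959 of the range of the 4 lines, above Dixon's critical value for 4 samples. In DPYSL3 the line apart was N87-TR1, at 10.66 against 11.34 to 11.40, with a gap of 0.930 of the range. Of the 8 tested genes 2 were singled out in this way, where chance alone picks about 1 in 20 groups and 6.50% of all 12478 tested genes were past the same value. The range over the 4 lines was 0.69 for UCHL1 and 0.74 for DPYSL3, wider than that of only 45.4% and 49.7% of genes. MAP1B differed between N87-TR3 and the other 3 resistant lines by -2.56 on the log2 scale in a limma test of that difference. The scanner signal of MAP1B in N87-TR3 was 184.5, near the detection limit, against 514.9, 999.5 and 892.5 in N87-TR1, N87-TR2 and N87-TR4.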

How the results depend on the processing

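No paired analysis was possible because the sensitive group is 1 array. The members' differences from NCI-N87 chose them, so they are given as values only. Without background correction UCHL1 differed by 5.97, DPYSL3 by 2.80 and MAP1B by 1.84 on the log2 scale, and with the authors' values UCHL1 by 6.13. Cyclic loess turned the median difference of all genes to -0.0378, against 0.068. Detection on all 5 arrays tested fewer genes and called 1462 of them in place of 2880, 21 pathway genes (19 of them higher) in place of 29 higher and 4 lower, and 3 tubulins, 2 microtubule-binding, 6 growth cone, 3 neuronal, 2 REST complex, 1 glial and 3 epithelial genes. It left 2 members at least 2-fold from NCI-N87 in N87-TR1 and 3 in each other line. In N87-TR3 5 were that far without background correction, with an offset of 50 and with the authors' values, and also with undetected levels at the detection limit, an alternative chosen after seeing the data. Of 18 list genes given as a bound, 17 had a fold without background correction below it. No detection filter gave 3 tubulins, and the mean of probes 0 ubiquitin genes. Leaving out each line in turn gave 20 to 37 pathway genes (18 to 32 higher), with 21 without N87-TR2 and 20 without N87-TR4. By list this was 2 to 6 tubulins, 7 to 12 growth cone, 3 to 9 tubulin-modifying, 1 to 2 ubiquitin and 1 to 4 REST complex genes. The count of N87-TR3 against the other 3 lines, 119, was 249 with 75th percentile scaling, 247 with detection on all 5 arrays, 40 with the mean of probes, 314 without background correction, 13 without a detection filter, 302 with the authors' values and 322 with the trended prior. It was 0 without N87-TR1 or N87-TR4 and at most 101 without another line. In that comparison 0 members were called with detection on all 5 arrays, where MAP1B was not tested, with the mean of probes, without a filter, or without N87-TR1 or N87-TR4 (0 to 1 over the lines left out). N87-TR4 had 1 gene with the trended prior. Except where a smaller set of genes or samples was tested, the cause was not tested. Levels of GAP43, of CRMP1 in N87-TR2 and of MAP1B in N87-TR3 lie at the limit set by background.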

Other observations

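The neurofilament gene NEFM, outside the genes named by rule and picked after its values were seen, had levels of 12.95, 13.26 and 11.58 in N87-TR1 to N87-TR3 and 5.74, below detection, in N87-TR4, against an undetected 5.49 in NCI-N87. UCHL1, TUBB2B and DPYSL3 were as high in N87-TR4 as in the other resistant lines, so NEFM and UCHL1 came apart in that line. ELAVL2, an RNA-binding protein of neurons, had levels of 8.55, 8.03 and 7.84 in N87-TR1, N87-TR2 and N87-TR4 and an undetected 5.35 in N87-TR3, the line in which MAP1B was also lowest. Neither gene passed the limma test against NCI-N87 (adjusted p = 0.191 and 0.215). Keratin 8 (KRT8) and TUBA4A, both lower in all 4 resistant lines than in NCI-N87, had the same order of resistant lines as STMN3 and CRMP1, with N87-TR1 the highest and N87-TR2 the lowest. KRT8 had levels of 9.07, 6.01, 8.84 and 7.13 in N87-TR1 to N87-TR4, against 13.86 in NCI-N87. In N87-TR2 KRT8, TUBA4A and CRMP1 were all below detection.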
